A study of Mus musculus with 8 samples.

Results

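The expression of 10 C-type lectin receptors of myeloid cells was examined in the aorta of atherosclerotic mice with and without natriuretic peptide receptor C (NPRC). The receptors were Clec4a1, Clec4a2, Clec4a3, Clec4d, Clec4e, Clec4n, Clec5a, Clec7a, Clec10a and Clec12a. They were chosen by name, as the rows of the gene table that carried the symbol, so that 10 of the 48607 loci in the table were members. Poly(A) RNA of the entire aorta was sequenced after a Western diet, which the study fed for 12 weeks. By title, 5 libraries came from ApoE-/- mice and 3 from NPRC-/-ApoE-/- mice, while the study's methods give 5 animals per group. All animals lacked apolipoprotein E and received the same diet. The NPRC-/- line was made by CRISPR with a frameshift in exon 1 of Npr3, so the mutation was in every cell type, and it was crossed with ApoE-/- mice, which were bought as males at 8 weeks of age. A second label, the genotype entry, matched the title of ApoE-/- 1, 2 and 3 and of NPRC-/-ApoE-/- 3. For the other 4 libraries it named the opposite genotype, that is Nprc-/-Apoe-/- for ApoE-/- 4 and 5 and Apoe-/- for NPRC-/-ApoE-/- 1 and 2. Groups were therefore formed by title, and each comparison was repeated by genotype entry.

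C-type lectin receptors are membrane proteins with which macrophages, monocytes, neutrophils and dendritic cells recognise sugars and lipids of microbes and of damaged tissue. Activating members signal through an immunoreceptor tyrosine-based activation motif, which they carry themselves or borrow from the adaptor chains encoded by Fcer1g and Tyrobp, and which recruits the kinase Syk and the scaffold Card9. Inhibitory members carry an immunoreceptor tyrosine-based inhibitory motif that recruits phosphatases such as the one encoded by Ptpn6. In the atherosclerotic aorta these receptors are found mainly on infiltrating and resident myeloid cells.

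In the annotation GENCODE M21 of the mouse genome build GRCm38, 8 of the 10 genes lie on 2 stretches of chromosome 6. The first holds 6 members, in the order Clec4a1, Clec4a3, Clec4a2, Clec4n, Clec4d and Clec4e, from 122921848 to 123289870 (368 kb). The genes Clec4n, Clec4d and Clec4e follow one another in its last 60.03 kb. The second stretch runs from Clec12a to Clec7a, from 129342691 to 129472779 (130.1 kb). Clec5a lies elsewhere on chromosome 6, from 40574894 to 40585821, and Clec10a lies on chromosome 11, from 70156197 to 70170834. Of the 10 genes, 8 had a promoter in the RefSeq table for GRCm38.p6, the exceptions being Clec4n and Clec10a. The letters GAGGAA, the core of the sites bound by the myeloid transcription factor PU.1, were searched on both strands in the 250 bases before each start. They were found for 7 of the 8 members (all but Clec4a2), against 25.9% of the 27025 genes in that table. A gene was counted when any of its starts had a match. Clec4a3 had a further start whose window held no match. The window of Clec12a (129349994 to 129350243) lay inside its GENCODE gene, which begins at 129342691. That of Clec4a2 (123122440 to 123122689) also lay inside its gene, which begins at 123106428. The windows of the paralogues Clec4a1 and Clec4a3 share a nearly identical stretch around a match, so the 7 are not independent. The letters TTNNGNAA of C/EBP factors were found for 5 of the 8 (40.3% of all genes), TGANTCA of AP-1 for 1 (7.82%) and a loose NF-κB motif for 1 (48.7%). The 4 promoters with 2 matches of GAGGAA are shown because they make this shared feature visible, with each match, or its reverse complement TTCCTC, in capitals.
Clec4a1, chr6:122921598-122921847, plus strand: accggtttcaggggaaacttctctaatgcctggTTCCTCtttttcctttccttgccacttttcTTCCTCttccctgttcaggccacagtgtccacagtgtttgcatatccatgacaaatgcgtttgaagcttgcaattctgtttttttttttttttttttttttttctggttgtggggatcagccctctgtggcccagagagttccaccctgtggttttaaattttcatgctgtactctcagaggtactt
Clec4e, chr6:123289872-123290121, minus strand: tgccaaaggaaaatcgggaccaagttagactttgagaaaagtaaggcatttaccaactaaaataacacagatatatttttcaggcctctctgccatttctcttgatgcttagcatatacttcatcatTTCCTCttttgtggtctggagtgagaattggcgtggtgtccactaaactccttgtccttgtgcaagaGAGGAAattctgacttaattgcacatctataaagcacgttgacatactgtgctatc
Clec5a, chr6:40585806-40586055, minus strand: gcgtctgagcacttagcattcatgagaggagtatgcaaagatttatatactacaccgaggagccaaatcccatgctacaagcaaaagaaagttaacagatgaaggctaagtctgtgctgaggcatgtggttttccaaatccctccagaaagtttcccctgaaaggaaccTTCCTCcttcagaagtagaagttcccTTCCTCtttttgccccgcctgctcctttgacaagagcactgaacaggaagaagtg
Clec12a, chr6:129349994-129350243, plus strand: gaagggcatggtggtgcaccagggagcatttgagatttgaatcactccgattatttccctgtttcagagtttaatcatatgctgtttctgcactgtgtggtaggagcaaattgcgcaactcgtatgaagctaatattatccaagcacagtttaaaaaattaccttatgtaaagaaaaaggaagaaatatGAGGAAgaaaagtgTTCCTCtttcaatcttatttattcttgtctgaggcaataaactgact
The matches began 217 and 187 bases before the start of Clec4a1, 123 and 56 before that of Clec4e, 81 and 55 before that of Clec5a, and 61 and 47 before that of Clec12a. None of these 8 matches overlapped one of the other 3 motifs. These matches describe the letters of the windows, and binding was not measured.

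Library totals lay between 67039577 and 84600371 counts for the title ApoE-/- and between 62969165 and 86693276 for NPRC-/-ApoE-/-. Levels are given as CPM, the count of a gene per 1000000 counts of the library at the loci tested, after TMM scaling. Npr3 itself had 30.2 to 73.0 CPM in the 5 libraries titled ApoE-/- and 52.5 to 62.1 CPM in the 3 titled NPRC-/-ApoE-/-, with a log2 fold change of 0.10 (standard error 0.28, adjusted p = 0.901). A frameshift need not lower the level of the RNA, so Npr3 did not check either label. Smooth muscle genes of the aortic wall such as Acta2 (mean 1249 FPKM) were abundant, and the brown fat gene Ucp1 (mean 244 FPKM) was also present. Nothing in the labels says whether each library was 1 animal, so the p-values measure the spread between these libraries.

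All 10 receptors passed the filter of at least 1 FPKM in at least 3 libraries. All 10 had a lower fitted level in the libraries titled NPRC-/-ApoE-/-. Clec4a2, Clec4d, Clec5a and Clec12a were under 1 FPKM in NPRC-/-ApoE-/- 2 and 3. They reached the filter in enough ApoE-/- libraries alone, so their entry into the test favoured a lower call. Clec7a (Dectin-1) and Clec12a had the largest differences, with levels 2.55-fold and 2.41-fold lower. The median log2 fold change of the 10 was -0.80, against -0.01 over the 20506 loci tested, of which 50.9% were below 0. The criterion of the study asks for more than a 2-fold change in either direction (a ratio over 2 or under 0.5) at an unadjusted p under 0.05. It was met by 2 of the 10, Clec7a and Clec12a (2.39% of all loci were called lower by it). An unadjusted p under 0.05 was found for 5 of the 10, namely Clec4a1, Clec4a3, Clec7a, Clec10a and Clec12a (7.13% of all loci, lower). After Benjamini-Hochberg adjustment over all loci, 0 of the 10 passed 0.05 in edgeR's quasi-likelihood test (0.0% of all loci passed, and the smallest adjusted p was 0.0525). With DESeq2, Clec4a1 (adjusted p = 0.0277) and Clec7a (adjusted p = 0.0166) passed, as did 3.37% of the 19295 loci with an adjusted value.

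By genotype entry the same 10 log2 fold changes were also below 0 (51.0% of all loci), but their median was -0.29 and 0 of the 10 met the criterion or had an unadjusted p under 0.05 in edgeR's quasi-likelihood test (0.263% and 0.697% of all loci were called lower). The largest difference by that label was -0.51 for Clec4n, with a standard error of 0.70. Among the 4 libraries whose labels match, 3 against 1, the log2 differences ran from -0.88 for Clec10a to -2.101 for Clec7a, without a test.

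**Figure D1:**
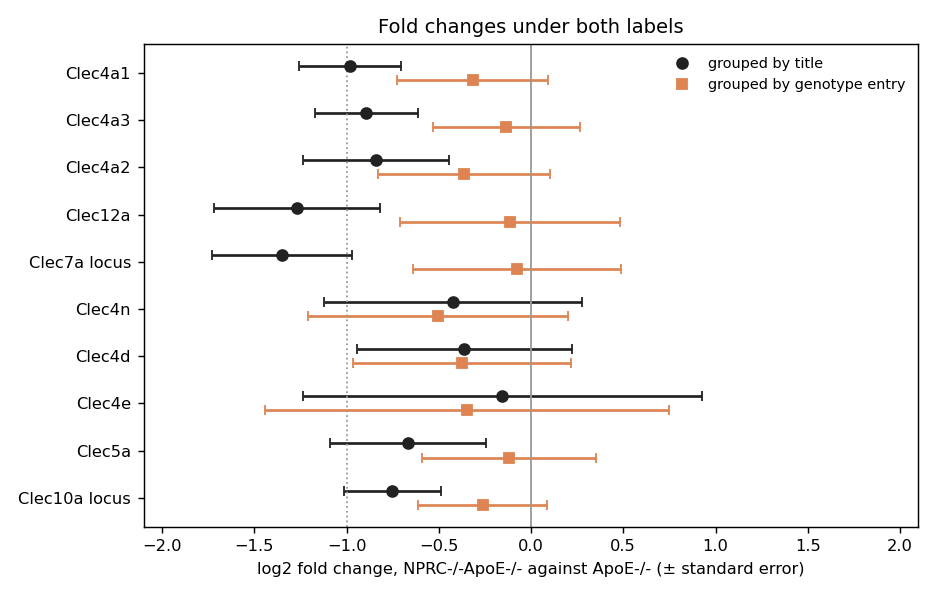
Log2 fold change (x axis, with standard error) of NPRC-/-ApoE-/- against ApoE-/- libraries for each receptor, grouped by title (circles) or by genotype entry (squares). The dotted line marks a fold change of 0.5. All points lie left of 0, and only the circles of Clec7a and Clec12a lie left of the dotted line.

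Clec7a encodes Dectin-1, the receptor for fungal β-glucan, which carries its own activation motif. It had 78.6, 71.4, 102.1, 113.2 and 56.3 CPM in ApoE-/- 1 to 5 and 56.1, 23.7 and 19.6 CPM in NPRC-/-ApoE-/- 1 to 3. It was the only receptor of the 10 whose titled groups did not overlap (3.69% of all loci had a lower, not overlapping group), and the gap lay between 56.3 CPM in ApoE-/- 5 and 56.1 CPM in NPRC-/-ApoE-/- 1. The means were 84.3 ± 23.1 CPM (SD, n = 5) and 33.1 ± 19.98 CPM (SD, n = 3). A log2 fold change of -1.35 was fitted (standard error 0.38, adjusted p = 0.263), and the two-sided exact permutation test of log2 CPM gave p = 0.0357, the smallest p that 5 against 3 libraries allow. By genotype entry the log2 fold change was -0.07 (standard error 0.56). The locus also held Clec1a, an endothelial C-type lectin, and the counts of the neighbours could not be separated.

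Clec12a encodes an inhibitory receptor of granulocytes, monocytes and dendritic cells that recognises uric acid crystals. Its level was 13.9, 20.5, 23.7, 26.3 and 11.4 CPM in ApoE-/- 1 to 5 and 14.4, 4.49 and 4.92 CPM in NPRC-/-ApoE-/- 1 to 3. NPRC-/-ApoE-/- 2 and 3 lay below every ApoE-/- library, while NPRC-/-ApoE-/- 1 lay above 2 of them. A log2 fold change of -1.27 was fitted (standard error 0.45, adjusted p = 0.309). With NPRC-/-ApoE-/- 2 or 3 left out, it was -0.97 or -1.005 and Clec12a no longer met the criterion.

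Clec4a2 encodes the dendritic cell immunoreceptor DCIR, which carries an inhibitory motif, and Clec4a1 and Clec4a3 encode close relatives from the same gene cluster. Clec4a1 had 10.9, 12.6, 15.4, 12.9 and 8.02 CPM in ApoE-/- 1 to 5 and 8.52, 5.19 and 4.44 CPM in NPRC-/-ApoE-/- 1 to 3. Its groups overlapped through ApoE-/- 5 and NPRC-/-ApoE-/- 1 alone, with a log2 fold change of -0.98 (standard error 0.28, adjusted p = 0.265), a 1.98-fold lower level. Clec4a3 had 8.23, 9.92, 8.43, 10.0 and 6.78 CPM in ApoE-/- 1 to 5 and 7.10, 3.45 and 3.47 CPM in NPRC-/-ApoE-/- 1 to 3. It overlapped through the same pair of libraries, with a log2 fold change of -0.89 (standard error 0.28, adjusted p = 0.285). Clec4a2 had 5.55, 4.42, 3.71, 5.15 and 2.32 CPM in ApoE-/- 1 to 5 and 3.91, 1.66 and 1.51 CPM in NPRC-/-ApoE-/- 1 to 3. Here NPRC-/-ApoE-/- 1 lay above ApoE-/- 3 and 5, with a log2 fold change of -0.84 (standard error 0.40, adjusted p = 0.386). Of the 100-base stretches of the Clec4a2 transcripts, 2.14% also occurred in Clec4a4, so a small part of its counts was uncertain.

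Clec4n (Dectin-2, which binds mannans), Clec4d (MCL) and Clec4e (Mincle, which binds mycobacterial glycolipids and a protein released by dying cells) encode activating receptors that signal through the Fcer1g chain. In contrast to the genes above, all 3 had their highest level of the 8 libraries in NPRC-/-ApoE-/- 1. Clec4n had 6.24, 7.53, 12.3, 10.9 and 3.70 CPM in ApoE-/- 1 to 5 and 14.0, 1.25 and 2.89 CPM in NPRC-/-ApoE-/- 1 to 3. Clec4d had 3.75, 2.57, 6.15, 6.18 and 1.97 CPM in ApoE-/- 1 to 5 and 6.54, 1.65 and 1.42 CPM in NPRC-/-ApoE-/- 1 to 3. Clec4e had 0.931, 1.68, 7.55, 7.42 and 0.400 CPM in ApoE-/- 1 to 5 and 7.99, 0.617 and 1.05 CPM in NPRC-/-ApoE-/- 1 to 3. Clec4e thus formed a high set of 3 libraries (ApoE-/- 3 and 4 and NPRC-/-ApoE-/- 1) and a low set of 5, and both sets held libraries of either title. Its lowest count was 32 reads, in ApoE-/- 5, and its highest was 690, in NPRC-/-ApoE-/- 1. Fitted log2 fold changes were -0.42 for Clec4n (standard error 0.70, adjusted p = 0.814), -0.36 for Clec4d (standard error 0.58, adjusted p = 0.807) and -0.16 for Clec4e (standard error 1.08, adjusted p = 0.965). These differences were within the spread between libraries. Without NPRC-/-ApoE-/- 1 they became -1.97, -1.43 and -2.105, and leaving out another library turned the sign to 0.08 for Clec4n (without NPRC-/-ApoE-/- 2), 0.01 for Clec4d (without NPRC-/-ApoE-/- 3) and as far as 0.35 for Clec4e (without NPRC-/-ApoE-/- 2).

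Clec5a (MDL-1) encodes an activating receptor that signals through the Tyrobp chain. It had 5.11, 5.22, 8.48, 9.54 and 3.61 CPM in ApoE-/- 1 to 5 and 6.72, 2.82 and 2.53 CPM in NPRC-/-ApoE-/- 1 to 3. NPRC-/-ApoE-/- 1 lay above 3 of the ApoE-/- libraries, and the log2 fold change of -0.67 (standard error 0.42, adjusted p = 0.501) was within the spread.

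Clec10a (MGL1) encodes a receptor for galactose-type sugars found on macrophages and dendritic cells. It had 28.6, 38.4, 19.6, 16.9 and 25.8 CPM in ApoE-/- 1 to 5 and 16.9, 13.4 and 15.7 CPM in NPRC-/-ApoE-/- 1 to 3. The order of the ApoE-/- libraries was unlike that of the other receptors, with ApoE-/- 2 highest and ApoE-/- 4 lowest. A log2 fold change of -0.75 was fitted (standard error 0.26, adjusted p = 0.309). All these values are those of a locus that also held the neighbouring paralogue Mgl2, with 24 assembled or annotated transcripts of which 9 were annotated to Clec10a and 5 to Mgl2, and the counts of the 2 genes could not be separated.

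**Figure D2:**
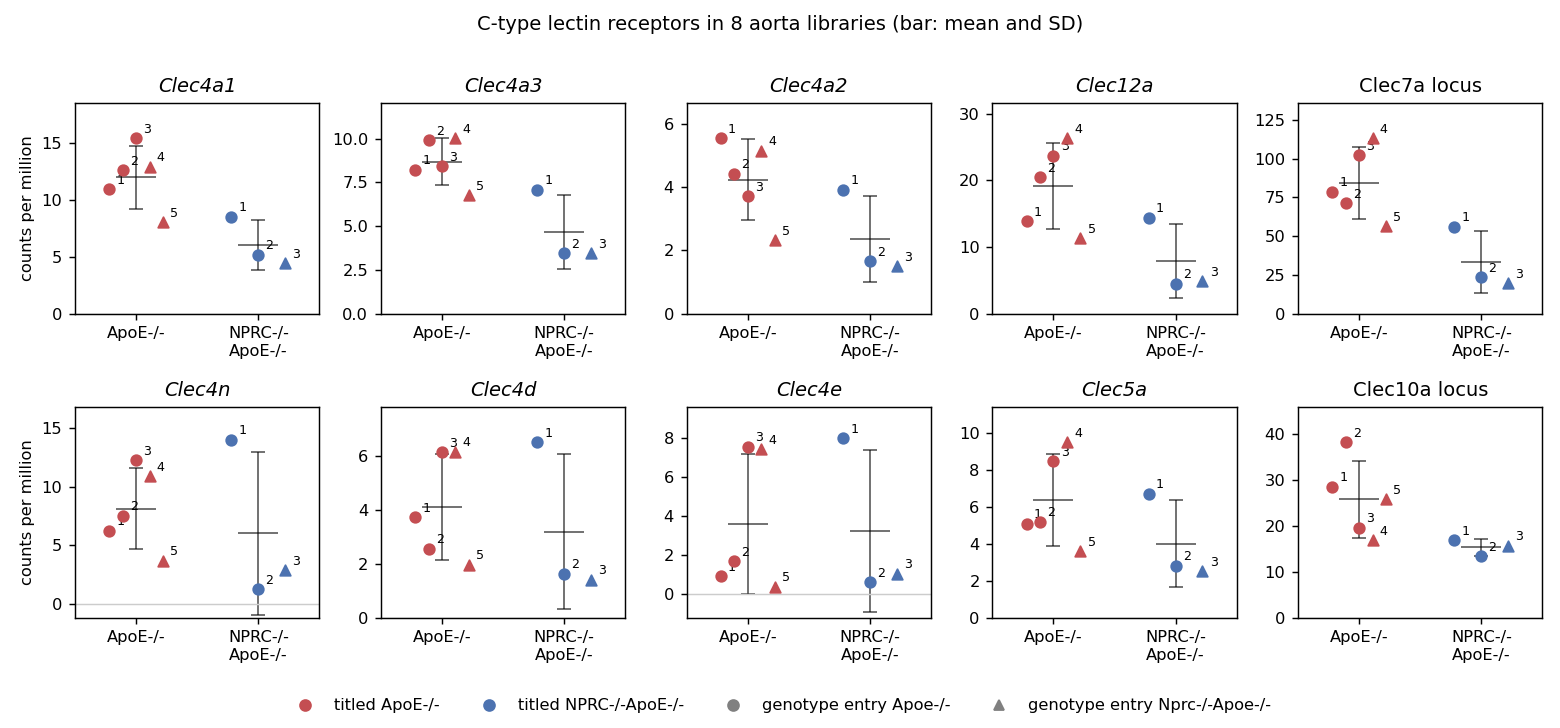
CPM (y axis) of each receptor in the 8 libraries by titled group (x axis, with the replicate number beside each point), with mean and SD. Colour gives the title and the shape gives the genotype entry. NPRC-/-ApoE-/- 2 and 3 are the lowest libraries for 9 of the 10 receptors, and NPRC-/-ApoE-/- 1 is the highest for Clec4d, Clec4e and Clec4n.

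Levels of different genes were compared as CPM per kilobase of the longest coding transcript, over the 8 libraries, for the 8 receptors with a locus of their own. The highest were Clec4a1 with 6.26 ± 2.48 CPM per kb (SD, n = 8), Clec4n with 5.97 ± 3.80, Clec12a with 5.97 ± 3.24 and Clec4a3 with 5.52 ± 1.98. These 4 did not differ from their neighbours in the order beyond their spread, since the order held in only 5, 3 and 4 of the 8 libraries. Clec4a3 lay above Clec4d (2.86 ± 1.66) in 8 of 8 libraries, and Clec4d lay above Clec5a (1.47 ± 0.69) in 8 of 8. Clec5a, Clec4a2 (1.42 ± 0.62) and Clec4e (1.37 ± 1.39) had similar means, and their order held in 6 and 5 of the 8 libraries. The ratio of the highest to the lowest library was 19.98 for Clec4e and 11.2 for Clec4n in CPM, and between 2.87 (Clec10a) and 5.86 (Clec12a) for the other 8 receptors.

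Levels also differed between libraries of the same title. The CPM of the 10 receptors summed to 161.8, 174.1, 207.4, 218.6 and 120.4 in ApoE-/- 1 to 5 and to 142.2, 58.2 and 57.5 in NPRC-/-ApoE-/- 1 to 3. NPRC-/-ApoE-/- 2 and 3 were the 2 lowest libraries for 9 of the 10 receptors, the exception being Clec4e, and this was so for 13.4% of all loci. NPRC-/-ApoE-/- 1 lay above the lowest ApoE-/- library for 9 of the 10. The number of receptors that met the criterion, 2 of 10 with all 8 libraries, changed with the library left out. It was 8 of 10 without NPRC-/-ApoE-/- 1 (5.32% of all loci were then called lower), with Clec4e and Clec10a as the exceptions, and 1 of 10, Clec7a, without NPRC-/-ApoE-/- 2 (1.11%) or without NPRC-/-ApoE-/- 3 (1.32%). It was 3 of 10 without ApoE-/- 1 (2.56%) or ApoE-/- 5 (3.49%), where Clec4a1 was added. The libraries were singled out after their values were seen.

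**Figure D3:**
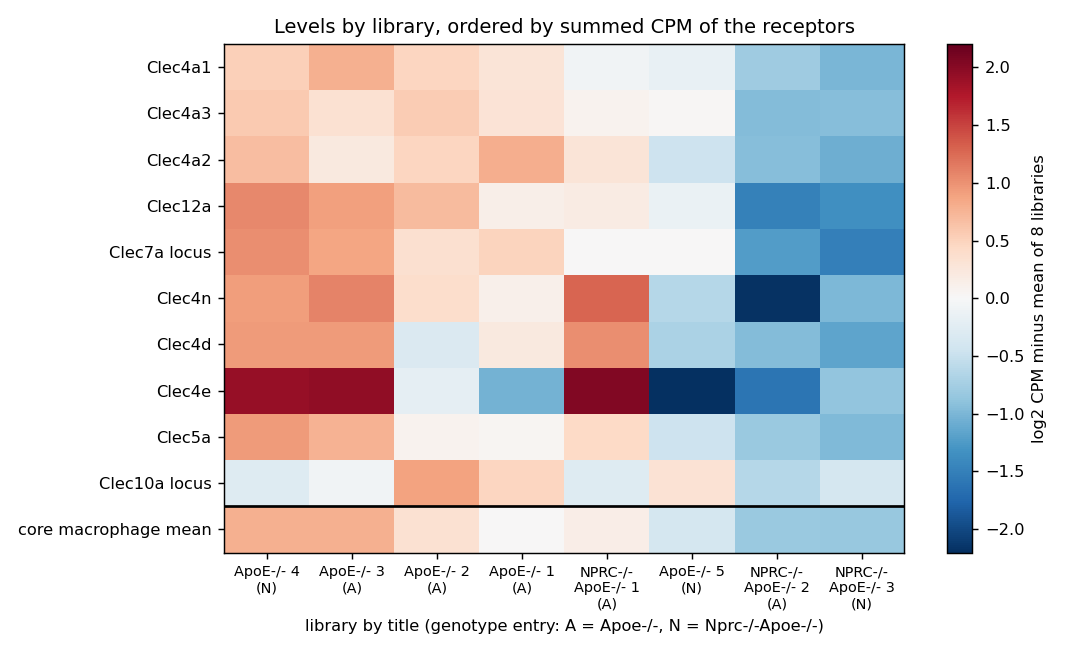
Log2 CPM of each receptor minus its mean over the 8 libraries (colour), with the mean of the 10 core macrophage genes in the bottom row. Columns are libraries in falling order of the summed CPM of the receptors, and the letter gives the genotype entry. NPRC-/-ApoE-/- 2 and 3 are the 2 columns at the right, with sums of 58.2 and 57.5 CPM.

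**Figure D4:**
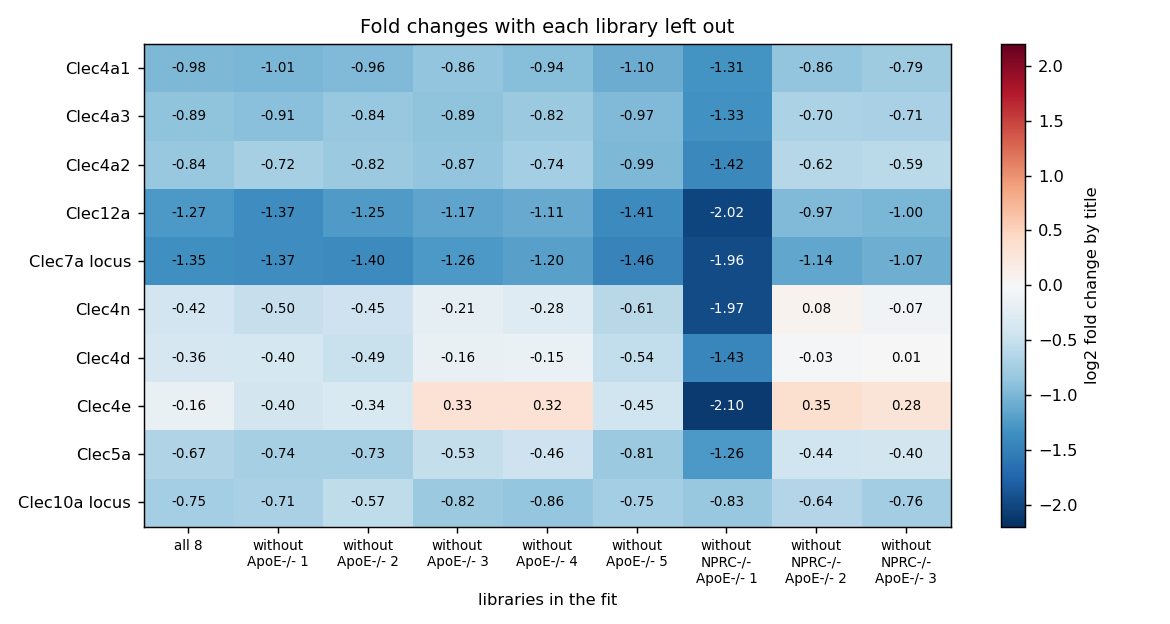
Log2 fold change by title (colour and printed value) of each receptor (rows) with all 8 libraries and with each library left out (columns). The column without NPRC-/-ApoE-/- 1 holds the lowest value for every receptor except Clec10a, and the values above 0 belong to Clec4e, Clec4n and Clec4d.

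General macrophage genes also had lower fitted levels by title. Of 10 core macrophage genes, 9 had a log2 fold change below 0 (median -0.97). The criterion was met by 2 of them, among them Fcgr1 (-1.46), while 0 met it by genotype entry. Over all loci, 50.9% were below 0 by title and 2.39% were called lower by the criterion. By genotype entry 51.0% were below 0 and 0.263% were called lower. These shares stand beside all the lists that follow. Their summed CPM was 1585 to 4199 in the libraries titled ApoE-/- and 1145 to 2326 in those titled NPRC-/-ApoE-/-, and Lyz2, the most abundant, had a log2 fold change of -1.24 (standard error 0.55). Foamy macrophage genes summed to 2102 to 9225 and 1508 to 3714 CPM and all 6 had a log2 fold change below 0, with Gpnmb and Fabp5 meeting the criterion, whereas by genotype entry 4 of the 6 were above 0 and 0 met it. Dendritic cell genes summed to 161.0 to 430.5 and 110.1 to 213.4 CPM, with Itgax, Cd209a and Ccr7 meeting the criterion among 4 tested. Cd209a reached the filter in enough ApoE-/- libraries alone, and it is counted again among the other C-type lectins. Monocyte genes summed to 233.1 to 462.6 and 189.3 to 266.5 CPM, with Ccr2 and Plac8 meeting the criterion, both lower, while Chil3 of the same 5 genes had a log2 fold change of 0.94 (standard error 0.78). The 4 others were below 0. Resident macrophage genes summed to 331.3 to 402.5 and 269.0 to 332.9 CPM, with 0 of 5 tested meeting it. Of these 5, 2 were below and 3 above 0, with a median of 0.00. The 2 below 0 had an unadjusted p under 0.05 in edgeR's quasi-likelihood test (7.13% of all loci, lower). Mrc1, 1 of them, was lower without overlap and is counted again among the other C-type lectins. Neutrophil genes summed to 15.9 to 42.8 and 11.9 to 32.1 CPM, with 1 of 6, Csf3r, meeting the criterion. T cell genes summed to 15.7 to 28.0 and 7.18 to 19.1 CPM, where Cd4 was the 1 of 2 tested genes that met the criterion, and B cell genes to 3.31 to 65.6 and 1.69 to 11.4 CPM. Smooth muscle genes were higher by title, with all 8 above 0, 7 of them at an unadjusted p under 0.05 (6.51% of all loci, higher). Their sums were 5843 to 7747 and 7475 to 14063 CPM. By genotype entry 7 of the 8 were above 0 and 0 had an unadjusted p under 0.05 (0.614% of all loci, higher). By that label 0 dendritic cell, monocyte, resident macrophage, neutrophil, T cell or B cell genes met the criterion. Brown fat genes summed to 255.9 to 963.3 and 715.2 to 956.2 CPM and white fat genes to 427.2 to 1077 and 776.9 to 912.7 CPM, with 0 genes of either list meeting the criterion. Of all these markers, 0 were without counts in every library. The markers named here for meeting the criterion were picked after their values were seen. In these bulk samples, fewer cells of a type and less RNA per cell cannot be told apart, and the part of cell content in the differences of the receptors was not tested.

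The receptors were therefore also expressed relative to the core macrophage genes of the same library, as log2 CPM minus the mean log2 CPM of that list. That mean was 6.55, 6.88, 7.32, 7.32 and 6.16 in ApoE-/- 1 to 5 and 6.70, 5.72 and 5.72 in NPRC-/-ApoE-/- 1 to 3 (difference -0.80, two-sided exact permutation p = 0.107). The range over the 8 libraries became smaller for 9 of the 10 receptors, Clec10a being the exception. The relative log2 level of Clec7a was -0.26, -0.73, -0.65, -0.50 and -0.34 in ApoE-/- 1 to 5 and -0.89, -1.16 and -1.42 in NPRC-/-ApoE-/- 1 to 3. The relative level of Clec12a was -2.76, -2.53, -2.75, -2.60 and -2.65 in ApoE-/- 1 to 5 and -2.85, -3.55 and -3.41 in NPRC-/-ApoE-/- 1 to 3. The titled groups of these 2 receptors did not overlap, with differences of -0.66 and -0.61 and an unadjusted two-sided exact permutation p = 0.0357 for each, the smallest possible, among 10 receptors tested. On this scale, which shifts the difference of every locus up by 0.80, 0.458% of all loci had a lower, not overlapping group. For the other 8 the groups overlapped and the exact p ran from 0.25 to 0.857, with 4 differences below and 4 above 0. On the scale of log2(FPKM + 1), which compresses low values, the difference of Clec7a was -0.47 (exact p = 0.0357) and that of Clec12a was -0.11 (exact p = 0.214), whereas Clec4d (0.43) and Clec4e (0.69) lay higher (exact p = 0.0357 for each). By genotype entry the differences were -0.02 for Clec7a and -0.001 for Clec12a, and the exact p was at least 0.464 for all 10.

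**Figure D5:**
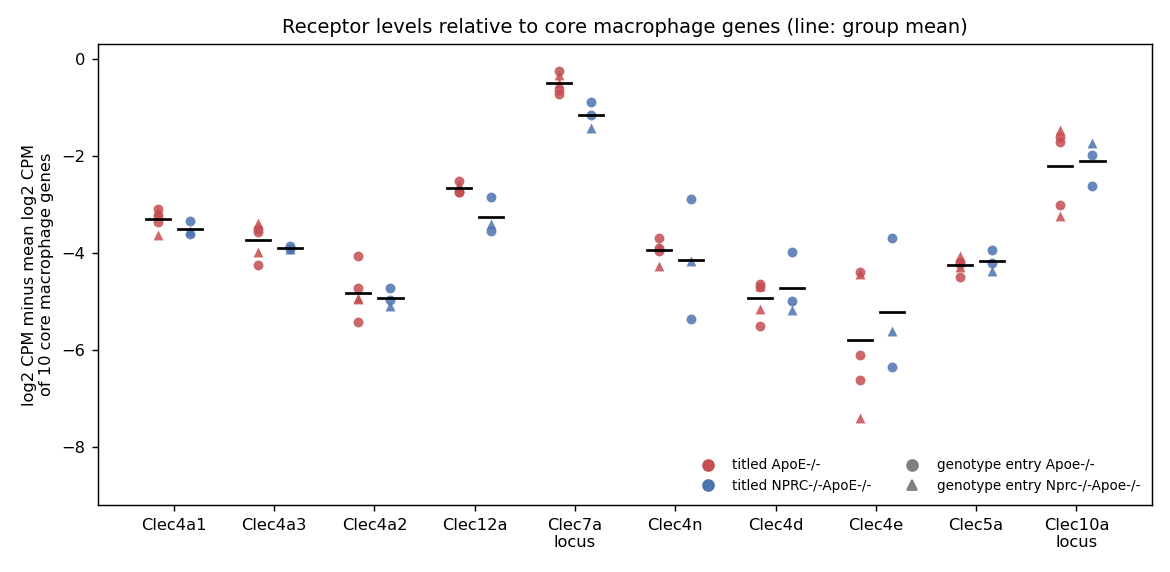
Log2 CPM of each receptor minus the mean log2 CPM of 10 core macrophage genes in the same library (y axis), by receptor (x axis), with colour for the title, shape for the genotype entry and a line at the group mean. Only for Clec7a and Clec12a do the 3 NPRC-/-ApoE-/- points all lie below the 5 ApoE-/- points.

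The signalling partners of the receptors were examined with a list of 18 adaptor, kinase, phosphatase and scaffold genes, of which 17 were tested (all but Hcst). A log2 fold change below 0 was found for 16 of the 17 (50.9% of all loci), with a median of -0.83, and 5 met the criterion, all lower (2.39% of all loci). The adaptor Fcer1g, on which Clec4d, Clec4e and Clec4n depend, had 29.4, 23.2, 55.0, 39.8 and 17.8 CPM in ApoE-/- 1 to 5 and 19.2, 10.6 and 9.37 CPM in NPRC-/-ApoE-/- 1 to 3. The log2 difference was -1.34 (standard error 0.40, adjusted p = 0.278), and unlike those receptors it was not high in NPRC-/-ApoE-/- 1. Among the others that met the criterion were Fgr (-1.25), a kinase of the Src family, Vav1 (-1.06), an exchange factor, and Ptpn6 (-1.02), which encodes the phosphatase SHP-1. Tyrobp, the partner of Clec5a, had 27.3 to 95.0 CPM by ApoE-/- library and 14.4 to 54.1 CPM by NPRC-/-ApoE-/- library, with a log2 fold change of -1.14 (standard error 0.55, adjusted p = 0.400). Syk had -0.81 (standard error 0.28, adjusted p = 0.309) and Card9 -0.78 (standard error 0.40, adjusted p = 0.416), and Ptpn11, a phosphatase gene expressed in most cells, had 0.18. By genotype entry 0 of the 17 met the criterion. The count of 5 changed with the library left out. It was 11 without NPRC-/-ApoE-/- 1 (5.32% of all loci), 8 without ApoE-/- 5 (3.49%) and 2 without ApoE-/- 4 (1.68%). It was 1 without ApoE-/- 3 (1.5%), NPRC-/-ApoE-/- 2 (1.11%) or NPRC-/-ApoE-/- 3 (1.32%).

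Among 32 other C-type lectins, Clec1a and Mgl2 shared the loci of members, and 16 of the remaining 30 genes were tested, at 15 loci. A log2 fold change below 0 was found for 14 of the 15 loci (50.9% of all loci), with a median of -0.38. The receptors Cd209a, Cd209d and Cd209f, mouse relatives of DC-SIGN, met the criterion, all lower (2.39% of all loci). All 3 reached the filter in enough ApoE-/- libraries alone, and Cd209d (0.27 to 0.6 FPKM) and Cd209f (0.6 to 0.91 FPKM) were under 1 FPKM in every NPRC-/-ApoE-/- library, so their entry into the test favoured a lower call. Cd209a had 3.92 to 6.13 CPM in the ApoE-/- libraries and 0.902 to 2.37 CPM in the NPRC-/-ApoE-/- libraries (log2 fold change -1.68, standard error 0.35, adjusted p = 0.216), with no overlap. Cd209d had -1.39 and Cd209f -1.06, and by genotype entry Cd209d had 0.16. Of the 15 loci, 4 were lower without overlap (3.69% of all loci) and 1 was higher without overlap (3.72% of all loci). Outside the 3 Cd209 loci these were Mrc1 and Clec16a, both named after their values were seen. Mrc1, the mannose receptor, had 143.9 to 167.4 and 88.2 to 107.5 CPM (log2 fold change -0.63, standard error 0.12, adjusted p = 0.203). Clec16a had 46.9 to 54.0 and 56.9 to 71.7 CPM (log2 fold change 0.31, standard error 0.12, adjusted p = 0.328). Grouped by the genotype entry, Clec16a had a log2 fold change of -0.05. The C-type lectins with the highest FPKM were Clec3b (-0.38), Thbd (-0.20), the locus of Clec2i and Clec2d (-0.27), Mrc2 (-0.44) and Colec12 (-0.26), genes expressed outside the myeloid lineage as well, and none met the criterion. Of the genes next to the members on chromosome 6, Clec4a4, Clec4b1, Clec4b2, Clec12b and the locus of Clec1b and Clec9a were below the filter. Olr1, the receptor for oxidised low-density lipoprotein beside Clec7a, had 1.65 to 14.6 and 0.902 to 7.199 CPM and a log2 fold change of -1.28 (standard error 0.83). The number meeting the criterion was 5 without NPRC-/-ApoE-/- 1 (5.32% of all loci).

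The receptors were also compared by the shape of their levels over the 8 libraries. Clec12a had the highest mean Pearson r of log2 CPM with the other 9 receptors (0.84), and Clec4e (0.58) and Clec10a (0.32) had the lowest. The closest partner was Clec7a for Clec4a1 (r = 0.97), Clec4a3 for Clec12a (r = 0.97), Clec5a for Clec4d (r = 0.96) and Clec4d for Clec4e (r = 0.88). The 8 loci outside the list with the highest mean r to the 10 receptors were the locus of Plxnc1 and Gm48718 (0.87), Ahr (0.86), Gsap (0.86), Ms4a6c (0.86), Cd300lb (0.86), Tlr1 (0.86), Arhgap9 (0.86) and Csf3r (0.86). These correlations are over 8 libraries that share the depth and cell content described above and carry no test. Tlr1, a receptor for bacterial lipopeptides, had 8.18 to 19.3 CPM in the ApoE-/- libraries and 3.07 to 12.1 CPM in the NPRC-/-ApoE-/- libraries.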

How the data were processed

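RNA-seq of the entire aorta was analysed in 8 libraries. The authors trimmed bases of low quality, aligned reads to the genome (HISAT2) and assembled transcripts from them (StringTie). The submitters' processing notes name cutadapt 1.9, FastQC and GRCm38. The authors deposited, per library and assembled locus, the count (whole numbers, not normalized) and the FPKM, which they normalized to transcript length and mapped fragments. How counts were derived and whether strand was used are not given in the sources used here. Loci assembled without a gene name held 0.486 to 0.743% of the counts and were kept. Every column of values could be assigned to a library (0 left over).

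A locus entered the test when 3 or more libraries reached 1 FPKM, which left 20506 loci. They were fitted in edgeR 4.0.16 (R 4.3.3) with TMM factors and its quasi-likelihood F-test, and p-values were adjusted by Benjamini-Hochberg over all of them. The biological coefficient of variation was 0.327. Log2 CPM used a prior count of 2, and exact permutation tests were two-sided (scipy 1.17.1). Alternatives were limma 3.58.1 on log2(FPKM + 1) or log2(FPKM + 0.1), DESeq2 1.42.0, other scalings and filters, the genotype entry, the replicate block and each library left out. The deposited FPKM was not proportional to the count per length where a locus had several transcripts. The ratio of CPM (here per library total, without TMM scaling) to FPKM per mean transcript length had a median of 1.21 with 1 transcript. It was 3.57 with 5 or more, so levels were ordered by CPM per kilobase although mean FPKM had been planned. No pair of libraries agreed within sampling noise (smallest mean chi-square per locus 140.4). On simulated counts with 200 of 20506 genes changed 4-fold, 190 were recovered and 8 others called.

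The receptors, lists and tests were chosen with earlier results of these data known. Genes named by the rule are the receptors, Npr3, signalling genes that met the criterion or encode the adaptors, Syk, Card9 or Ptpn6, other C-type lectins beside the receptors, of highest FPKM or meeting the criterion, the 3 markers of highest FPKM per cell type, and the 8 loci most like the receptors. Ptpn11, Mrc1, Clec16a, Chil3 and markers named for meeting the criterion were chosen after their values were seen. The single values of 2 genes of these lists are not reported here.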

Additional observations from a re-analysis of the deposited data

Results flagged for a closer look

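In the libraries titled ApoE-/-, the mean log2 CPM of the resident macrophage genes was 5.11 in ApoE-/- 2, apart from the other 4 libraries. The mean log2 CPM of the dendritic cell genes was 2.27 in ApoE-/- 5, also apart from the other 4. Each was found because 1 sample lay farther from the rest than Dixon's 95% critical value, in 68 groups of values examined, where chance gives about 3.4 such samples. No receptor was flagged. The part of these values in the receptor levels was not tested.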

How the results depend on the processing

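Against 2 of 10 receptors meeting the criterion, the count was 0 by genotype entry (0.263% of all loci were called lower). It was 1 with limma on log2(FPKM + 1) (0.668%) but 3 with limma on log2(FPKM + 0.1) (2.41%). With a mean of at least 5 FPKM it was 1 (1.84%, where 2 receptors were tested), and with a library left out 1 to 8. Against 0 with an adjusted p under 0.05, the count was 2 with DESeq2 and 0 to 0 with a library left out. Libraries numbered 1 to 3 in the 2 titled groups shared only a number: their deviations correlated at -0.31, -0.11 and 0.01, and no library correlated best with its own number. With the replicate block, 5 receptors met the criterion (2.6% of all loci), against 3 in the same 6 libraries without it (2.86%). The median log2 fold change of the receptors was -1.57 in the 4 libraries with matching labels and ran from -1.42 to -0.63 with a library left out. Signalling genes meeting the criterion (5 of 17) became 0 by genotype entry, and 3 and 8 with limma on log2(FPKM + 1) and log2(FPKM + 0.1). The count was 2 of 10 tested with a mean of at least 5 FPKM and 1 to 11 with a library left out. Other C-type lectins (3 of 15 loci) became 0 by genotype entry and 0 with limma on log2(FPKM + 1). More loci were tested under looser filters, with 6 of 28 without a filter (3.45% of all loci were called lower) and 5 of 23 with filterByExpr (3.77%). The count was 0 of 8 with a mean of at least 5 FPKM and 2 to 5 with a library left out. Core macrophage genes (2 of 10) became 0 by genotype entry, 4 with limma on log2(FPKM + 0.1) and 4 with DESeq2 (2.71% of all loci were called lower). The count was 0 of 8 with a mean of at least 5 FPKM and 0 to 7 with a library left out. For the genotype entry, limma and the mean of at least 5 FPKM, the shares of all loci are those given above. With a library left out, 1.11% to 5.32% of all loci were called lower. The median level of the receptors relative to macrophage genes (-0.14) became 0.15 on log2(FPKM + 1) and ran from -0.188 to -0.013 with a library left out. With a library left out, the log2 fold change ran from -1.429 to 0.009 for Clec4d, from -2.105 to 0.354 for Clec4e and from -1.967 to 0.076 for Clec4n, the lowest without NPRC-/-ApoE-/- 1. Signs turned for Clec4d (without NPRC-/-ApoE-/- 3), Clec4e (0.325 and 0.315 without ApoE-/- 3 or 4, 0.354 and 0.285 without NPRC-/-ApoE-/- 2 or 3), Clec4n (without NPRC-/-ApoE-/- 2) and Npr3 (-0.037 without ApoE-/- 3, and up to 0.244 without another library). By genotype entry, signs turned for Cd209d (0.156), Colec12 (0.092), Thbd (0.014), Clec16a (-0.049), Fabp5 (0.005), Itgax (0.028), Cd4 (0.277) and Chil3 (-0.432). Chil3 also turned without NPRC-/-ApoE-/- 1 (-0.402, against up to 1.406 without another library) and in the 4 libraries with matching labels (-0.005). The cause was not tested. The scaling by median ratios or by totals changed no count of receptors. Counts of 32 to 690 reads in Clec4e and 3 libraries in the smaller group limit what can be detected.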
